A study of Mus musculus with 9 samples.

Results

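Secreted cytokine genes of the interleukin-1, tumor necrosis factor and related families were followed across mouse ZFTA-RELA ependymomas and control brains. The 10 genes, Il1a, Il1b, Il1rn, Tnf, Il6, Il12b, Il10, Tgfb1, Osm and Lif, were taken by gene symbol from the 32285 mouse genes of the count tables, and all 10 were present. Single-cell RNA was measured with 9 droplet libraries of RNA 5′ ends, as many as the mice the study's design names, and each library was taken as 1 mouse. The 4 control mice carried NestinCreERT2;TdT, and the 5 tumor mice, of the EP ZFTA-RELA model, carried NestinCreERT2;Fus1. All mice were 6 to 8 weeks old. The tamoxifen-inducible Cre was driven by Nestin in both groups. In tumor mice it recombined a conditional ZFTA-RELA fusion allele, targeted to the Rosa26 locus, in embryonic radial glia. The genotype labels list the TdT reporter for the control mice only, although the study also describes its signal in tumor mice. Tumor or brain was dissociated with a tumor dissociation kit, passed through Percoll, stained with DAPI and sorted. The sample records name anti-Ter119, a red blood cell marker, for the sort, and the study's methods also name anti-CD45, a marker of blood-derived cells and microglia, and an intravenous CD45 label given to the mice. The study describes single-cell profiles of CD45+ cells outside the blood and also profiles of whole tumor tissue with neural and stromal cells. Vascular and neural cells, which a gate on CD45 would remove, were present in these libraries, whose records do not give the gate. Every share of cells and every share of RNA by cell type below depends on that sort.

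IL-1α and IL-1β, the products of Il1a and Il1b, and TNF are alarm signals that microglia and macrophages release, and they act through receptors that switch on NF-κB. IL-1β is made as an inactive precursor that inflammasome caspases cut, and the product of Il1rn blocks the IL-1 receptor. IL-6, oncostatin M and LIF, the products of Il6, Osm and Lif, share the receptor chain gp130 and signal mainly through STAT3. Il12b encodes the subunit shared by IL-12 and IL-23, which act on T cells. IL-10 and TGF-β1 restrain inflammation, and TGF-β1 keeps microglia in their resting state in the healthy brain.

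Gene positions are given in GRCm38 coordinates from the GENCODE annotation. Il1a (chr2:129299610-129309972) and Il1b (chr2:129364570-129371139) are neighbors on the minus strand of chromosome 2, 54598 bases apart, while Il1rn (chr2:24336853-24351494) lies far from them. Osm (chr11:4236420-4241026) and Lif (chr11:4257557-4272514) are neighbors on chromosome 11, 16531 bases apart. The others are Il12b (chr11:44400063-44414033), Tnf (chr17:35199381-35202007, 1158 bases from Lta), Il6 (chr5:30013114-30019981), Il10 (chr1:131019845-131024974) and Tgfb1 (chr7:25687002-25705077). Il1b overlaps the antisense gene Il1bos and Il1a overlaps Gm14023 on the opposite strand. The counting strand was not given in the sources used here, so reads of these partners could not be told apart from theirs.

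Promoter sequences from RefSeq (GRCm38.p6) were matched for 8 of the 10 genes, the exceptions being Il10 and Osm. The 250 bases before the start of Il1a (chr2:129309973-129310222, minus strand), Il1b (chr2:129371140-129371389, minus strand), Tnf (chr17:35202008-35202257, minus strand) and Tgfb1 (chr7:25686752-25687001, plus strand) are shown because these genes were tested in the phagocyte sums below, together with Osm. Capitals mark TATAAA, the letters of a TATA box.
Il1a: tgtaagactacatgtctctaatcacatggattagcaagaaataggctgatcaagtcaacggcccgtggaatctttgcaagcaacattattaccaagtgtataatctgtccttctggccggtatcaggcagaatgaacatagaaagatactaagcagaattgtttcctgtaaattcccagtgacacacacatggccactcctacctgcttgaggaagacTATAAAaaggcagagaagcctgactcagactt
Il1b: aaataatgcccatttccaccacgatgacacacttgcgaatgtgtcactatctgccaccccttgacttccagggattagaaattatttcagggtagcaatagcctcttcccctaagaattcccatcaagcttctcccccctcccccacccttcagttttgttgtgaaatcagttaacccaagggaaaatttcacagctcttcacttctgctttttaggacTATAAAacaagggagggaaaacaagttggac
Tnf: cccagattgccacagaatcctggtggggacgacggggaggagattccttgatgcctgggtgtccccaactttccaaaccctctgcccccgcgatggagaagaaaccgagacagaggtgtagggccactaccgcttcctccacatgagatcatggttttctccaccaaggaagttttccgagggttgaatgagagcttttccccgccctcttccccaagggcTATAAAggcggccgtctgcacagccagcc
Tgfb1: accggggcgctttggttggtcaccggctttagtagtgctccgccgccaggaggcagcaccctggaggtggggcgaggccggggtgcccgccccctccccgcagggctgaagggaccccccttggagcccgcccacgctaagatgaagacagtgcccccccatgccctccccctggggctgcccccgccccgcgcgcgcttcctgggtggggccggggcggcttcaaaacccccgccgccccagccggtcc
TATAAA, read on the gene's own strand, stood 32, 31 and 29 bases before the start of Il1a, Il1b and Tnf and was not found in the windows of Tgfb1, Il1rn, Il12b, Il6 and Lif. TATAAA was present in 7.59% of the 32851 promoter windows of this length, and in 2.63% within the last 50 bases. The Tgfb1 window was 75.2% G or C with 21 CpG dinucleotides, against 42.4% and 3 for Il1a, 44.4% and 2 for Il1b, and 57.6% and 10 for Tnf. Over all windows the medians were 52.4% and 6. The NF-κB consensus, searched on both strands, was in 3.90% of all windows and among these genes only in that of Il6, 44 bases before its start. AP-1, searched on both strands as TGACTCA or TGAGTCA, was in 4.46% of all windows and in those of Il1a, Il1rn, Il6 and Lif. Il1rn had 3 windows, and AP-1 was in the first only. These are letter matches and not measured binding.

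Levels were read as unique molecular identifiers (UMIs), one per captured RNA molecule, summed over the cells of a mouse and scaled to a total of 1000000 UMIs per sum (CPM). UMIs were counted at the 5′ end of the RNA, so a level carries no term for gene length. Libraries held 101060608 to 178086164 UMIs in controls and 14967680 to 69411387 in tumors, and 4452 to 6714 and 1923 to 5671 cells were kept. Before doublets were removed, mitochondrial UMIs averaged 7.76 to 8.42% per cell in controls and 10.3, 7.85, 5.28, 2.18 and 3.26% in tumors 1 to 5. Phagocytes, the gate that takes microglia and macrophages together by 10 markers such as C1qa and Csf1r, numbered 153 to 193 per control and 269 to 692 per tumor, or 2.87 to 3.56% and 8.77 to 21.1% of kept cells. Free RNA, profiled in the barcodes with fewest UMIs and scaled by neuronal transcripts, was estimated at 67.7 to 71.0% of the UMIs in control phagocytes and 7.86 to 28.2% in tumor phagocytes. Neuron markers summed to 3706 to 3934 CPM in control and 57.8 to 911 CPM in tumor phagocytes. Those barcodes may also hold debris or damaged cells, which was not tested, and every value with free RNA subtracted rests on them. By this estimate levels in control phagocytes are diluted by other cells' RNA, and values after subtraction are given where they change a result. Marker lists of other immune cells were low in the same sums. In controls and tumors, neutrophil markers summed to 40.2 to 88.7 and 75.7 to 185 CPM, B cell markers to at most 171 and 227 CPM, monocyte markers to 13.1 to 26.9 and 13.4 to 40.3 CPM, dendritic cell markers to 11.9 to 39.3 and 5.64 to 48.6 CPM, and T or NK cell markers to 8.97 to 13.4 and 1.39 to 3.92 CPM. Of the defining genes, Cd3e was at 0 in every mouse and S100a8 at 0 to 7.39 CPM. Their part in the cytokine levels was not tested. No barcode of a phagocyte was shared among the 8 libraries whose barcode lists could be matched.

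Phagocytes of control brains held almost no Il1b, Tnf, Osm, Il1rn or Il12b RNA, and phagocytes of tumors held all 5 in most mice. Il1b had the highest mean level of the set in tumor phagocytes, at 256 CPM ± 202 (SD, n = 5), against 1.26 ± 1.70 (n = 4) in control phagocytes. Il1a was already present in control phagocytes, at 8.73 to 13.4 CPM, and was at 107 ± 58.7 CPM (SD, n = 5) in tumors. Each of Il1a, Il1b, Il1rn, Tnf, Tgfb1 and Osm was higher in all 5 tumors than in any of the 4 controls, where 9.94% of all genes tested were separated in that direction and 35.2% in the other, although Il1rn in tumor 1 rested on 2 UMIs, below the floor of 3. Tgfb1 did not keep that order once free RNA was subtracted, when its mean was higher in controls.

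**Figure D1:**
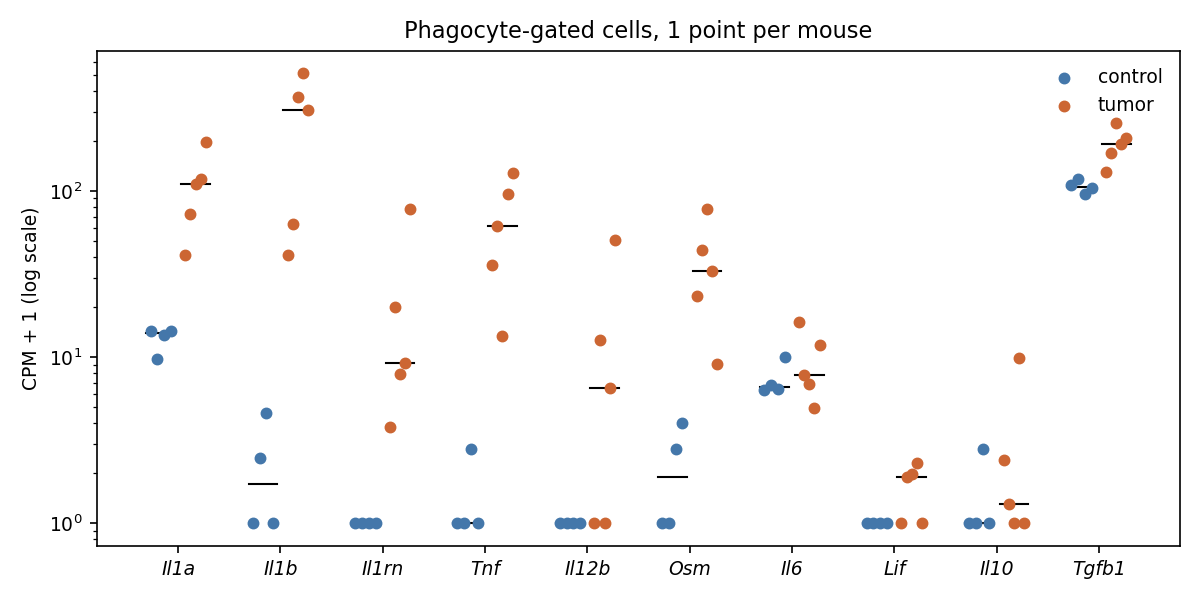
Level of each cytokine gene in phagocyte-gated cells of each mouse, as CPM plus 1 on a log axis, with a bar at the median of 4 control brains and of 5 tumors. Il1a, Il1b, Tnf, Tgfb1 and Osm are separated between the groups, as is Il1rn with 2 UMIs in its lowest tumor (Tgfb1 overlaps, with the higher mean in controls, once free RNA is subtracted), while Il6, Il10 and Lif overlap and Il12b is at 0 in every control and in 2 tumors.

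Among the interleukin-1 ligands, Il1b was at 0, 1.45, 3.59 and 0 CPM in control phagocytes 1 to 4 and at 40.3, 62.0, 366, 510 and 304 CPM in tumors 1 to 5. Tumors 1 and 2 were several-fold below the other 3. These levels rested on 3 UMIs over all control phagocytes and 2993 over all tumor phagocytes, a ratio of pooled levels of 214 (95% counting interval 73.2 to 1038), which was 486 without control 3 and 91.6 with free RNA subtracted. Il1a was at 13.4, 8.73, 12.6 and 13.4 CPM in controls and at 40.3, 71.8, 109, 118 and 196 CPM in tumors, and the groups did not overlap. Il1rn, the antagonist, had no UMI in control phagocytes and was at 2.78, 19.0, 6.89, 8.17 and 77.3 CPM in tumors, with tumor 5 far above the rest and tumor 1, with 2 UMIs, not to be told from controls. Its pooled level was at least 15.7-fold higher in tumors, taking 3 UMIs over the control group as the floor, at least 8.73-fold without tumor 5, which gave 115 of the 220 UMIs, and at least 6.70-fold with free RNA subtracted. Counting intervals and floors here cover counting error and not differences between mice.

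Tnf was at 0, 0, 1.79 and 0 CPM in control phagocytes and at 34.7, 60.6, 12.3, 94.4 and 127 CPM in tumors, and tumor 3, among the highest for Il1b, was the lowest for Tnf. Il12b had no UMI in controls and was at 0, 11.6, 0, 5.55 and 49.7 CPM in tumors, so that 2 tumors could not be told from controls. Its pooled level was at least 9.30-fold higher in tumors on the same floor, at least 4.65-fold without tumor 5, which gave 74 of the 130 UMIs, and at least 3.95-fold with free RNA subtracted.

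Of the gp130 cytokines, Osm was at 0, 0, 1.79 and 2.98 CPM in control phagocytes and at 22.2, 43.3, 76.3, 32.0 and 8.06 CPM in tumors. It rested on 3 UMIs over all control phagocytes, and the ratio of pooled levels was 30.5 (95% counting interval 10.4 to 149). Tumor 5, the highest for Il1a, Il1rn, Tnf and Il12b, was the lowest for Osm. Il6 was at 5.36, 5.82, 5.38 and 8.95 CPM in controls and 15.3, 6.83, 5.91, 3.92 and 10.8 CPM in tumors, and the groups overlapped. The ratio of pooled Il6 levels was 1.06 (95% counting interval 0.602 to 1.99), and 0.426 with free RNA subtracted. Lif had 0 UMIs in control phagocytes and 9 in tumor phagocytes.

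For the regulatory cytokines, Tgfb1 was at 107, 116, 95.1 and 103 CPM in control phagocytes and at 129, 167, 254, 191 and 208 CPM in tumors. The groups did not overlap, but with free RNA subtracted they did, at 257 to 323 CPM in controls and 171 to 271 CPM in tumors. Tgfb1 had the highest level of the 10 genes in every control. Il10 was near the limit of detection, at 0, 0, 1.79 and 0 CPM in controls and 1.39, 0.297, 0, 8.82 and 0 CPM in tumors, with 27 of its 29 tumor UMIs in tumor 4.

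The sums were tested with edgeR's quasi-likelihood test over all genes, with Benjamini-Hochberg adjustment. Of the 10 cytokine genes 5 passed the filter on low counts, and all 5 were called higher in tumor phagocytes, where 26.0% of all genes tested were called higher and 23.8% lower. All but Tgfb1 were low or near 0 in controls and passed the filter through the tumor sums, so the count says little about the set. The log2 fold change of Il1b was 8.06 (SE 1.13, adjusted p = 0.00019). It was 7.47 for Tnf (SE 1.14, adjusted p = 0.00031), 5.25 for Osm (SE 0.90, adjusted p = 0.00058) and 3.71 for Il1a (SE 0.47, adjusted p = 0.00012). Tgfb1 changed least, by 1.39 (SE 0.22, adjusted p = 0.00038). Without the filter, edgeR also called Il1rn (adjusted p = 0.0011) and Il12b (adjusted p = 0.013), and it did not call Lif (0.14), Il10 (0.19) or Il6 (0.21). With limma voom in place of edgeR, the calls of Il1b, Tnf and Osm were lost (adjusted p = 0.13, 0.14 and 0.15), and those of Il1a and Tgfb1 were kept. Scaling by total UMIs in place of TMM, which moved log2 fold changes by 0.55, left all 5 genes called higher, although over all genes it changed the split from 2344 higher and 2144 lower to 1096 higher and 3671 lower.

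Free RNA changed the call of Tgfb1 among the 5 genes tested, although subtracting it lowered the log2 fold change of each of them. After the free RNA expected in each sum was subtracted, Tgfb1 in control phagocytes was at 290, 323, 257 and 287 CPM and in tumors at 171, 201, 271, 229 and 259 CPM. The order of the group means turned, to 289 ± 26.8 in controls and 226 ± 41.2 in tumors. The edgeR log2 fold change of Tgfb1 fell to 0.38 (SE 0.24, adjusted p = 0.22) with TMM and was -0.42 (adjusted p = 0.15) with total UMIs, so Tgfb1 per phagocyte RNA had no direction that held. Il6 after subtraction was at 18.0 ± 5.22 CPM in controls and 10.4 ± 6.73 CPM in tumors, with an edgeR log2 difference of 0.02 (adjusted p = 0.99) without the filter. The 4 genes with large differences kept their calls, with log2 fold changes of 7.09 for Il1b, 6.64 for Tnf, 4.23 for Osm and 2.70 for Il1a.

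**Figure D2:**
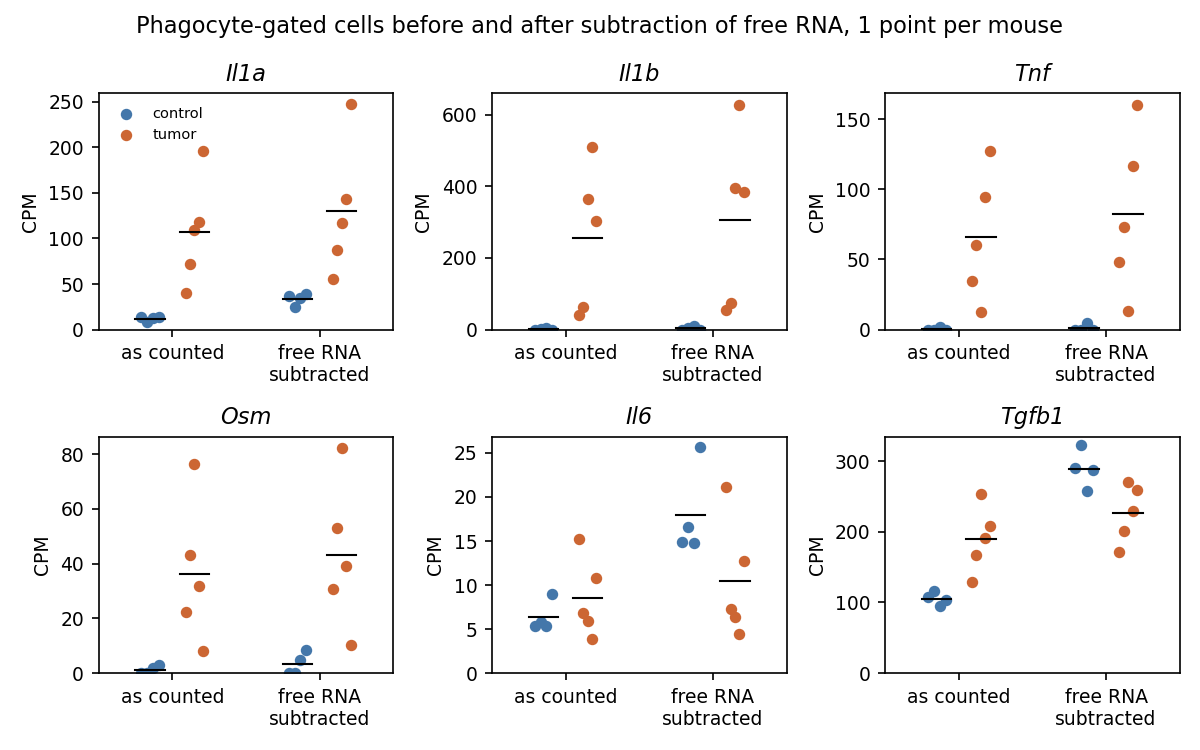
CPM of cytokine genes in phagocyte-gated cells before and after subtraction of the free RNA estimated in each mouse, with a bar at the group mean. For Tgfb1 the control mean moves from 105 to 289 CPM and passes the tumor mean, which moves from 190 to 226 CPM, while Il1b stays separated between control brains and tumors.

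The same differences appeared as shares of cells. With phagocytes thinned to 1000 UMIs, and 4 cells of tumor 3 below that left out, Il1b was detected in 8.72% ± 8.01 of tumor phagocytes (n = 5 mice) and in 0.163% ± 0.327 of control phagocytes (n = 4 mice). Tumor 4 stood highest at 22.5%, against 2.60 to 7.52% in the other tumors, and the tumor mean was 5.27% without it. Tnf was detected in 4.14% ± 2.33 of tumor phagocytes and in none of 682 control phagocytes, Il1a in 7.03% ± 2.80 and 1.59% ± 0.81, and Osm in 2.70% ± 1.37 and 0.299% ± 0.599. In an exact two-sided permutation test over mice, for which 0.0159 is the smallest p these group sizes allow, p was 0.0159 for Il1a, Il1b, Tnf and Tgfb1 and 0.0317 for Osm. Thinning matched total UMIs and not a cell's own RNA, since free RNA took 67.7 to 71.0% of UMIs in control and 7.86 to 28.2% in tumor phagocytes, and its part in the shares was not tested. Over the 10 genes the adjusted values were not computed, since the set was chosen with results known. Tgfb1 was detected in 16.3% ± 3.58 of tumor and 8.81% ± 2.27 of control phagocytes, but that call was lost with a limit of 10% mitochondrial UMIs (exact permutation p = 0.857), a stricter gate (exact permutation p = 0.0952) and no thinning (exact permutation p = 0.0635). Osm was no longer called when any of controls 1 to 3 (exact permutation p = 0.0714) or tumors 1 to 4 (exact permutation p = 0.0571, the limits those sizes allow being 0.0357 and 0.0286) was left out.

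Il1rn was found in 0.987% ± 0.989 of tumor phagocytes and in no control phagocyte (exact permutation p = 0.0794), which reached an exact permutation p of 0.0159 when thinned to 2000 UMIs, not thinned, with the stricter gate or with doublets kept, 0.0286 without tumor 3 and 0.238 with the mitochondrial limit. Il12b was found in 0.442% ± 0.532 and none (exact permutation p = 0.238). Without tumor 5 the mean shares were 0.587% for Il1rn and 0.265% for Il12b. Il6 was found in 0.689% ± 0.292 of tumor and 0.720% ± 0.213 of control phagocytes (exact permutation p = 0.857). For Il10 and Lif the exact permutation p was 0.556. Without thinning, the mean shares in tumor and control phagocytes were 15.5% and 0.475% for Il1b, 21.5% and 4.03% for Il1a, 12% and 0.163% for Tnf, and 48.2% and 28.7% for Tgfb1. In oligodendrocytes, which served as the background of free RNA, Il1b and Tnf were each found after thinning in 0.685% of cells in tumor 4 and in none elsewhere, Il1a in 1 of 30 cells in tumor 5 (3.33%, against 10.9% of its phagocytes) and in none elsewhere, and Tgfb1 in at most 5.41%. Median UMIs per cell were 1887 to 5611 in phagocytes and 1641 to 6384 in oligodendrocytes.

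**Figure D3:**
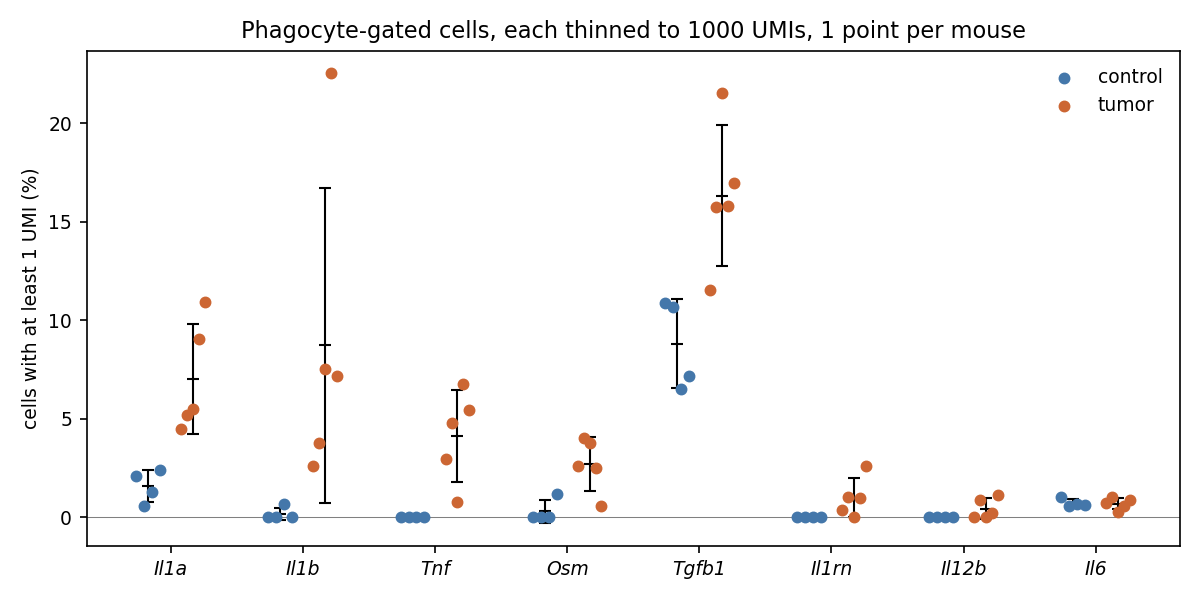
Share of phagocyte-gated cells, in percent, with at least 1 UMI of each cytokine gene after each cell was thinned to 1000 UMIs. Points are mice, and bars show the mean and SD of 4 control brains and 5 tumors. Il1b reaches 22.5% in tumor 4, and Tgfb1 is the only gene found in over 5% of control phagocytes.

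Within the tumors the RNA was held unequally by the phagocytes. In tumor 3, 743 Il1b UMIs came from 50 of 403 phagocytes, with up to 74 in a single cell, and the 10% of cells with most held 98.8% of them. Tumor 5 was alike, with 452 Il1b UMIs in 45 of 348 phagocytes and up to 83 in 1 cell. Il1b was spread further in tumor 4, in 188 of 519 phagocytes, where the top 10% held 62.8%. For Tgfb1 the top 10% held 33.3 to 48.4% of UMIs. This share is 100% for any gene found in fewer than 10% of cells, as Il1rn, Il6, Il12b, Il10 and Lif were in every tumor that had them, so it follows how many cells had the gene. Il12b in tumor 5 came from 11 cells, 1 of which held 27 of the 74 UMIs, and Osm in the same tumor from 12 cells with 1 UMI each.

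Phagocytes with an Il1b UMI had Tnf at a higher share in each tumor, which is given as a description without a test. After thinning, Tnf was found in 14.3, 11.5, 3.33, 19.7 and 32.0% of the phagocytes with an Il1b UMI in tumors 1 to 5, and in 2.67, 4.50, 0.542, 2.99 and 3.41% of those without. In tumors 1 and 3 the first share was 1 cell, of 7 and of 30. Il1a was found in 0, 15.4, 20.0, 19.7 and 40.0% of phagocytes with Il1b and in 4.58, 4.80, 4.34, 5.97 and 8.67% of those without. Tumor 1, with 7 such cells, was the exception for Il1a. Other pairs were less alike. Tnf was found in 0, 11.1, 0, 25.5 and 15.8% of phagocytes with Il1a and in 3.11, 4.42, 0.796, 4.87 and 4.19% of those without. Osm was found in 0, 12.1, 0, 2.86 and 0% of phagocytes with Tnf and in 2.68, 3.64, 3.79, 2.48 and 0.608% of those without.

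Immediate early and heat-shock genes, which can be induced while tissue is dissociated, were also higher in tumor phagocytes. Of a list of 14, 13 were tested and 11 were called higher in tumor phagocytes by edgeR, with none lower, where 26.0% of all genes were called higher, and the median log2 difference was 3.01 against 0.08 over all genes. Junb rose by 2.47 (adjusted p = 3e-05), Ier2 by 4.12 (adjusted p = 3.4e-05), Dusp1 by 3.41 (adjusted p = 0.00074) and Atf3 by 6.05 (adjusted p = 0.00096). Summed over the list, levels were 959, 944, 1419 and 1186 CPM in control phagocytes and 3282, 2642, 14216, 4505 and 1280 CPM in tumors. Tumor 3 was highest for this sum, and tumor 5 was the lowest tumor and lay within the range of the controls. Osm was likewise highest in tumor 3 and lowest in tumor 5, and Tgfb1 was highest in tumor 3. Tnf was lowest in tumor 3, and Il1a, Tnf, Il1rn and Il12b were highest in tumor 5. After free RNA was subtracted, 7 of 14 were called higher and none lower, where 24.6% of all genes were called higher. The part of dissociation in the cytokine levels was not tested.

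Microglia were next taken apart from macrophages. The microglia gate needed more microglia markers, such as P2ry12 and Tmem119, than macrophage markers, and it held 117 to 172 control cells and 233 to 484 tumor cells per mouse. The homeostatic marker P2ry12 was at 1000 to 1191 CPM in control and 227 to 1148 CPM in tumor cells of this gate. Tmem119 was at 442 to 575 CPM and 334 to 607 CPM, so the gate held cells with microglia RNA in both groups. Lyz2, a macrophage marker, was at 42.1 to 94.2 CPM in control and 553 to 5250 CPM in tumor cells of the gate, and the 10 macrophage markers summed to 72.3 to 172 CPM and 734 to 6138 CPM. Their part in the cytokine levels of the gate was not tested.

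Control microglia had Il1a at 15.1, 10.7, 16.9 and 16.2 CPM and Il1b at 0, 1.78, 2.42 and 0 CPM. Tumor microglia 1 to 5 had Il1a at 43.0, 96.3, 112, 140 and 207 CPM and Il1b at 38.2, 61.5, 322, 500 and 307 CPM. Neither gene overlapped between the groups, where 9.48% of all genes tested were separated with tumors higher and 34.0% with tumors lower. Tnf was at 0, 0, 2.42 and 0 CPM in control microglia and at 35.1, 80.0, 6.87, 123 and 134 CPM in tumor microglia. Osm was at 0, 0, 2.42 and 3.59 CPM and at 25.5, 44.8, 70.3, 35.0 and 8.67 CPM. All 5 of the cytokine genes tested were called higher by edgeR, where 21.3% of all genes were called higher and 24.2% lower, again mostly genes that passed the filter through the tumor sums. Log2 fold changes were 8.15 for Il1b (adjusted p = 0.00021), 7.29 for Tnf (0.00082), 4.88 for Osm (0.00069), 3.48 for Il1a (0.00013) and 1.12 for Tgfb1 (0.0011). After free RNA was subtracted, that of Tgfb1 was 0.22 (adjusted p = 0.47), and voom lost the calls of Il1b (0.052), Osm (0.062) and Tnf (0.13). Il6 stayed at 6.02 to 10.8 CPM in control and 5.75 to 17.5 CPM in tumor microglia.

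Macrophages were compared with microglia of the same tumor in tumors 2, 3 and 4, which had 129, 20 and 99 macrophage-gated cells. Few genes separated the gates, with 1.09% called higher and 1.13% called lower in macrophages by edgeR with the mouse as a block. Il1a was lower in macrophages, at 17.9 against 96.3 CPM in tumor 2, 69.1 against 112 in tumor 3 and 70.4 against 140 in tumor 4. The log2 difference was -1.34 (SE 0.29, adjusted p = 0.019). This call was not firm, since DESeq2 gave an adjusted p of 0.16 and edgeR without tumor 2 or without tumor 4 gave 0.57 and 0.073.

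Il1b did not take 1 order in the 3 tumors, at 49.5 CPM in macrophages against 61.5 in microglia in tumor 2, 968 against 322 in tumor 3 and 665 against 500 in tumor 4 (edgeR log2 difference 0.65, adjusted p = 0.43). Tnf in macrophages was at 28.9, 95.1 and 44.7 CPM against 80.0, 6.87 and 123 CPM in microglia, so tumor 3 went against the other 2. Its log2 difference was -0.70 (edgeR adjusted p = 0.79) over the 3 tumors. It was -1.39 (edgeR adjusted p = 3.2e-06) without tumor 3, a fit that rests on tumors 2 and 4 alone. Il12b was at 0 in the macrophage gate of every mouse and at 13.1, 6.70 and 53.5 CPM in the microglia of tumors 2, 4 and 5. The floor of 3 UMIs in macrophages was 4.13 CPM in tumor 2 and 5.15 CPM in tumor 4, close under the microglia level in tumor 4. In tumor 5, with 4 macrophage-gated cells, it was 185 CPM, so that 0 could not be told from the microglia level. In controls it was 67.4 to 168 CPM. Phagocytes in neither gate had Il12b at 23.3 CPM in tumor 2, 7.69 CPM in tumor 4 and 0 in tumor 5. Il10 in tumor 4 was at 25.8 CPM in macrophages, from 15 UMIs, and at 4.31 CPM in microglia. Osm, Il1rn and Tgfb1 were not called (edgeR adjusted p = 0.999, 0.77 and 0.79), and Osm changed sign between settings.

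**Figure D4:**
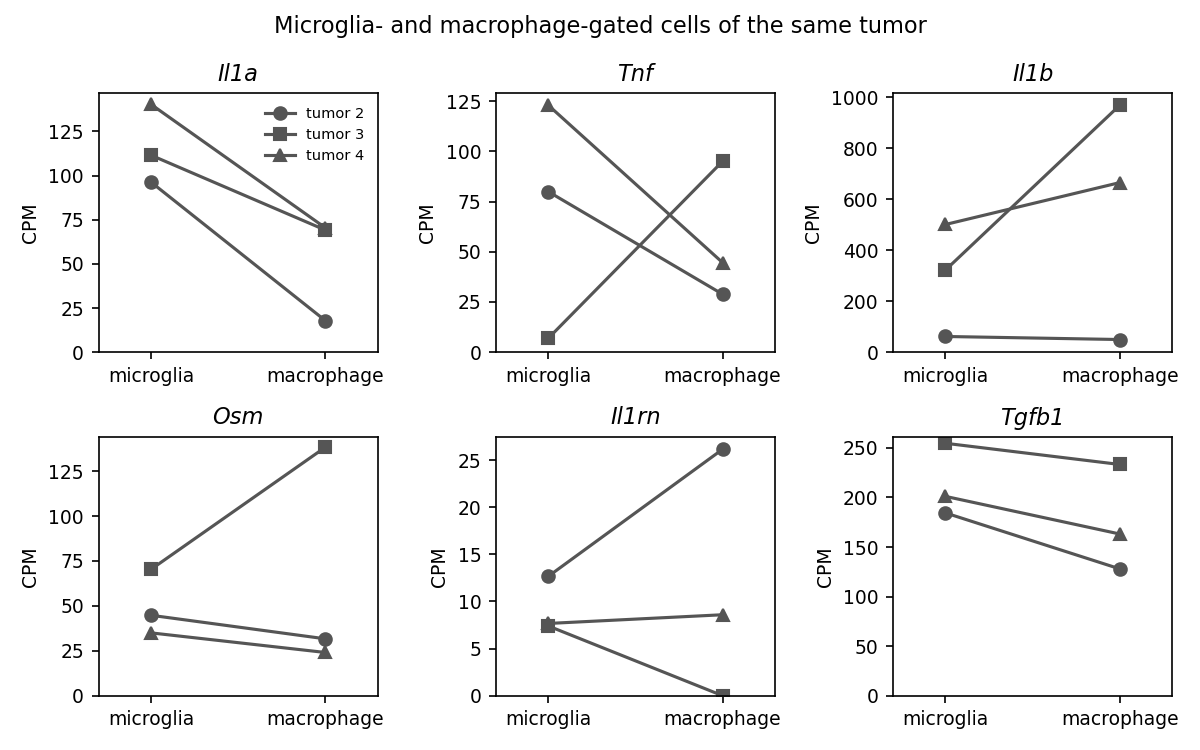
CPM of cytokine genes in microglia-gated and macrophage-gated cells of the same tumor, with a line joining the gates of tumors 2, 3 and 4. Il1a falls from microglia to macrophages in all 3 tumors, while Il1b and Tnf go opposite ways in different tumors.

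Which cells of the tumor held each cytokine was read from all marker gates. Phagocytes held 83.2 to 91.3% of the UMIs of 6 genes, with 91.3% of 1253 Il1a UMIs, 90.7% of 471 Osm, 89.1% of 247 Il1rn, 88.4% of 147 Il12b, 87.4% of 838 Tnf and 83.2% of 3597 Il1b UMIs over the 5 tumors. By tumor the share of Il1b in phagocytes was 82.9, 59.7, 74.0, 89.7 and 96.6%, so tumor 2 kept the most outside them. For Tgfb1 the share was 65.4% of 3158 UMIs, for Il10 54.7% of 53, for Il6 45.1% of 164 and for Lif 3.40% of 265. Single tumors set the shares of Il6 and Il10. Il6 was in phagocytes for 100, 25.0, 100, 70.6 and 50.0% of UMIs in tumors 1 to 5, and for 70.8% without tumor 2. Il10 was at 9.09% without tumor 4 and 87.5% without tumor 2.

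**Figure D5:**
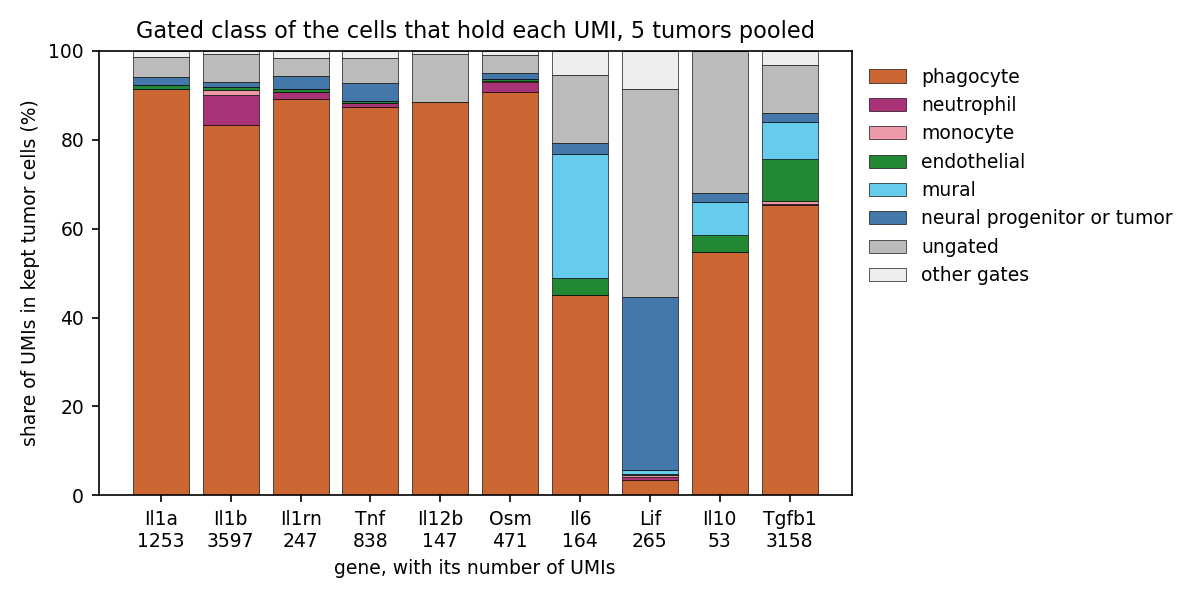
Share of each cytokine gene's UMIs held by each marker-gated cell class, in percent of the UMIs in kept cells summed over 5 tumors. Phagocytes hold over 83% for Il1a, Il1b, Il1rn, Tnf, Il12b and Osm, mural cells hold 28.0% of Il6, and ungated cells and cells gated as neural progenitor or tumor hold most of Lif.

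In edgeR's test of phagocytes against all other kept cells of the same tumor, 7 cytokine genes were tested and all 7 were called higher in phagocytes, where 24.2% of all genes were called higher and 28.6% lower. Genes rare elsewhere, such as Il1rn with 220 of its 247 UMIs in phagocytes, passed the filter through the phagocyte sums, so the count says little about the set. The log2 difference was 6.84 for Il1a, 6.19 for Osm, 6.18 for Il1rn, 6.00 for Tnf, 5.49 for Il1b, 4.05 for Tgfb1 and 3.90 for Il6, with adjusted p from 8.3e-08 to 0.0040. Il12b was added without the filter. Lif had a log2 difference of -1.53 there, which edgeR did not call (adjusted p = 0.071).

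Outside phagocytes, neutrophils were the densest source of Il1b, although few were captured. The 3 neutrophils of tumor 3 held 183 Il1b UMIs, up to 70 in 1 cell, and 10 of the 11 neutrophils of tumor 2 held 58. Over all tumors neutrophils held 6.81% of Il1b UMIs, and 2.39% without tumor 3 or 13.2% without tumor 4, which had no gated neutrophil. Of 4 monocytes in tumor 3, 2 held 29 Il1b UMIs, 24 of them in 1 cell.

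Il6 was also found in mural cells, the pericytes and smooth muscle cells of vessels, almost wholly in 1 tumor. Mural cells held 28.0% of its tumor UMIs, and 9.72% without tumor 2. In tumor 2, 13 of 58 mural cells held 39 UMIs, a level of 103 CPM against 6.83 CPM in phagocytes of that tumor and 4.16 CPM in its low barcodes. In tumor 5, 7 Il6 UMIs came from 1 of 15 mural cells. The 43 mural cells of tumor 3 and the 60 of tumor 4 had no Il6 UMI. Tumors 1 and 3 had all of their 11 and 12 Il6 UMIs in phagocytes.

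Tgfb1 was also present in vessels. It was at 89.4, 59.3, 92.2, 97.4 and 100 CPM in the endothelial cells of tumors 1 to 5 and at 321, 77.3 and 294 CPM in the mural cells of tumors 2 to 4. Low barcodes of the tumors held Tgfb1 at 14.4 to 42.8 CPM. Endothelial and mural cells together held less of the Tgfb1 RNA than phagocytes, at 9.37% and 8.26% of tumor UMIs.

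Lif stood apart from the rest, since it was hardly found in phagocytes. Cells gated as neural progenitor or tumor held 38.9% of its tumor UMIs and ungated cells 46.8%. In that gate 27 of 946 cells in tumor 2, 42 of 1765 in tumor 4 and 8 of 640 in tumor 5 had a Lif UMI, while 1 of 141 in tumor 3 and 0 of 117 in tumor 1 did. The level was 5.74, 3.73 and 2.69 CPM in tumors 2, 4 and 5, and the low barcodes of the same tumors were at 6.23, 2.91 and 3.32 CPM. Those low-barcode levels rested on 12, 5 and 6 Lif UMIs, so Lif in that gate could not be told from the low barcodes. Single cells held up to 7 Lif UMIs in the progenitor or tumor gate of tumor 2 and up to 8 among ungated cells of tumor 5. The part of free RNA in these counts was not tested.

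Summed over all kept cells, which adds the larger share of phagocytes in tumors to their higher levels, the differences grew for most genes. For Il1b no order could be given. Its ratio of pooled levels was 134 over all kept cells (counting interval 89.2 to 212) and 214 in phagocytes (73.2 to 1038). The ratio in phagocytes rested on 3 control UMIs, and the intervals overlapped. With free RNA subtracted, the ratio in phagocytes was below 134. Per whole sample, fewer cells of a type and less RNA per cell cannot be told apart. Il1b was at 0.564, 0.345, 0.119 and 0.261 CPM in control brains and at 5.98, 20.3, 139, 43.9 and 27.9 CPM in tumors. Tgfb1 was at 5.50, 6.76, 5.28 and 6.26 CPM and at 29.7, 51.3, 93.4, 24.2 and 27.7 CPM. Lif, at 0.141, 0.197, 0.0594 and 0.0869 CPM in controls, was at 0.171, 4.18, 1.10, 3.26 and 3.28 CPM in tumors, where tumor 1 was within the range of the controls. Il6 was at 0.197 to 0.348 CPM in controls and 0.429 to 5.34 CPM in tumors, without overlap, where 23.9% of all genes tested were separated with tumors higher and 33.3% with tumors lower.

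In this sum edgeR tested 8 of the 10 cytokine genes and called all 8 higher, where 32.3% of all genes tested were called higher and 29.4% lower. All but Tgfb1 were at most at 0.594 CPM in any control brain and passed the filter through the tumors, so the count says little about the set. Il1rn, Tnf, Osm and Lif had 0, 3, 4 and 9 UMIs over the 4 control brains. The pooled level of Il1rn was at least 70.6-fold higher in tumors on the floor of 3 UMIs over the controls, and at least 42.9-fold without tumor 5. Log2 fold changes of the other 7 genes were 7.87 for Tnf, 7.39 for Il1b, 7.18 for Osm, 5.18 for Il1a, 4.63 for Lif, 3.42 for Il6 and 3.14 for Tgfb1, and the 8 genes had adjusted p from 0.00014 to 0.0033. Il12b and Il10 were called without the filter (adjusted p = 0.011 and 0.018). Il1rn, Il6 and Lif did not pass the filter when tumor 2, 3 or 5 was left out, and these were not the only such settings. Over the alternatives each of them had an adjusted p in 13, and Il1a, Il1b, Tnf, Tgfb1 and Osm each in 18.

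The genes that process and receive these cytokines were followed as lists, and most of their calls in phagocytes did not outlast the subtraction of free RNA. In phagocytes edgeR called 26.0% of all genes higher and 23.8% lower, and 24.6% and 17.8% with free RNA subtracted. Of 16 genes for maturation and release, 11 were tested and 8 were called higher, and 2 of 9 were with free RNA subtracted, where 1 was lower. Pycard (log2 difference 1.96, adjusted p = 0.0001), the inflammasome adaptor, and Gsdmd (1.95, adjusted p = 0.00043), its pore, were the 2 that stayed called, at 1.01 and 0.89, and with total UMIs as well neither was (edgeR adjusted p = 0.52 and 0.76). The sensor Nlrp3 (1.73, adjusted p = 0.00021) and Furin (1.45, adjusted p = 0.00029), a protease that cuts pro-TGF-β1, were at 0.71 and 0.77 after subtraction and were not called (edgeR adjusted p = 0.069 and 0.065).

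Of 18 receptor genes 10 were tested and 5 were called higher, and with free RNA subtracted none of 9 was called higher and 2 were called lower, where 17.8% of all genes were called lower. The TNF receptor Tnfrsf1a went from a log2 difference of 1.42 (edgeR adjusted p = 0.00043) to 0.35 (0.28), the IL-10 receptor chain Il10rb from 1.74 (0.00085) to 0.79 (0.070), Il10ra from 0.97 (0.012) to -0.06 (0.88) and Tgfbr2 from 0.60 (0.010) to -0.38 (0.17). Scaling by total UMIs instead gave 2 receptors higher and 2 lower, where 12.2% of all genes were higher and 40.8% lower. With both changes none of 9 was higher and 5 were lower, where 13.6% of all genes were higher and 39.4% lower. Of 16 other ligands 3 were tested, and Il18 (1.20, edgeR adjusted p = 0.0059) and Ebi3 (1.36, edgeR adjusted p = 0.044) were called higher. Il18 stayed called after subtraction (edgeR adjusted p = 0.0070) but not with total UMIs (0.10), and Ebi3 was lost under both (0.53 and 0.21).

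Among 23 signaling and feedback genes, 18 were tested in phagocytes and edgeR called 11 higher and none lower, and 3 with free RNA subtracted. Those 3 were Socs3, Tnfaip3 and Zfp36. Socs3, an inhibitor induced by STAT3, rose by 4.50 on the log2 scale (adjusted p = 9.1e-05) and by 3.42 after subtraction. Tnfaip3, which restrains NF-κB signaling, rose by 3.22 (adjusted p = 0.00069) and by 2.30, and Zfp36, which destabilizes cytokine mRNAs, by 2.69 (adjusted p = 0.00047) and by 1.69. With total UMIs as well, the call of Zfp36 was lost (edgeR adjusted p = 0.10). In that setting 2 of the 18 genes were called higher and 10 lower, where 13.6% of all genes were called higher and 39.4% lower. The IL-1 receptor adaptor Myd88 was at 1.88 (edgeR adjusted p = 0.00052) and, after subtraction, at 0.97 (0.065). The median log2 difference of the 18 genes was 0.70, became -0.16 after subtraction and was -0.92 with total UMIs as well.

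In microglia alone, where 21.3% of all genes were called higher, edgeR called 8 of 10 tested maturation genes, 7 of 18 signaling genes and 3 of 10 receptor genes higher. With free RNA subtracted these were 1 of 9, 3 of 18 and none of 9, where 22.6% of all genes were. With total UMIs as well, 2 of 9, 10 of 18 and 6 of 9 were called lower, where 39% of all genes were. Only 2 signaling genes were then called higher, where 12.4% of all genes were. The gp130 gene Il6st was called lower (log2 difference -0.67, edgeR adjusted p = 0.027) and stayed so after subtraction (-1.58, edgeR adjusted p = 0.00081). Over all kept cells, where 32.3% of all genes were called higher, 12 of 15 receptor genes tested were higher and 1 lower, and Osmr, the receptor for oncostatin M, rose by 4.63 (edgeR adjusted p = 0.00014). Within tumors Osmr was lower in phagocytes than in other cells (edgeR log2 difference -2.33, adjusted p = 0.0013), while Osm was higher there. Between macrophages and microglia, Thbs1, a TGF-β1 activator, was higher in macrophages (2.31, edgeR adjusted p = 0.0023) and Tgfbr1 was lower (-0.99, edgeR adjusted p = 0.041), and no other gene of the lists was called.

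Genes with the most similar pattern were ranked by correlation over 73 sums of 12 cell classes in 9 mice, which share libraries and are not independent. For Il1b the first were Ccl4 (r = 0.93), Gm49662 (r = 0.92) and Ccl3 (r = 0.91), of which Ccl3 and Ccl4 encode chemokines, with Il1a (r = 0.90) the only other cytokine of the set among its first 5. For Osm the first was Ccl3 (r = 0.92), for Tnf Hcar2 (r = 0.97) and for Il1a Ncf4 (r = 0.94). Il12b and Il1rn were each among the other's first 5 (r = 0.96), and both share their highest level in tumor 5. Tgfb1 was closest to Cyba (r = 0.89), Il6 to Mmp3 (r = 0.82), and Lif had no close partner (highest r = 0.68). Il10 had too few UMIs to be ranked.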

How the data were processed

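Single-cell RNA was measured in 9 mice, 4 controls and 5 tumors, grouped by the genotype in the sample records. The authors deposited UMI counts per gene and barcode, whole numbers that were not normalized, made with Cell Ranger (6.1.2 in the file headers, 7 in the submitters' processing notes, which also name Scanpy 1.8.2 and mm10). The reads were not realigned here. The barcode list of control 4 is shorter than its matrix, so that library was left out of the comparison of barcodes only.

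Barcodes were kept with 200 to 6000 genes among the 10000 with most UMIs. Of these, a Gaussian mixture of 2 components (scikit-learn 1.9.0) kept the side lower in mean mitochondrial share within each library. It set no common mitochondrial limit. Removed barcodes averaged 16.2 to 18.2% mitochondrial UMIs in controls and 22.4, 16.5, 12.7, 3.87 and 4.92% in tumors 1 to 5. Those removed from tumors 4 and 5 were thus below the 7.76 to 8.42% of barcodes kept in controls. The highest Scrublet scores (Scanpy 1.11.5) were removed at 0.8% per 1000 cells. Cells were gated by the marker genes of each class, with at least 3 detected, a score of at least 3 above the free RNA level and no second class above 0.5 times that score, and none of the 10 cytokine genes was used. Among phagocytes, microglia and macrophages were separated by the number of markers of each detected, at least 2. Free RNA was profiled in each library's 3000 barcodes of lowest UMI count (low barcodes, medians of 559 to 1338 UMIs, which may also hold debris or damaged cells) and scaled by the neuron markers found in each sum.

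UMI counts were summed per mouse and gate (at least 20 cells) and tested with edgeR 4.0.16 (quasi-likelihood, TMM, filterByExpr, Benjamini-Hochberg over all genes, threshold 0.05), with the mouse as a block within tumors. The SE printed with an edgeR log2 fold change was derived as its absolute value over the square root of the test's F. It was not estimated separately. Shares of cells used an exact permutation test over mice (SciPy 1.17.1). Depth, in total UMIs per library, is given with the results and sets the counting intervals. Intervals of ratios and shares are 95% exact ones. Alternatives were DESeq2 1.42.0, limma 3.58.1 with voom, other filters and gates, no doublets removed, each mouse left out, the replicate number as a block, subtraction of free RNA and, added after the data were seen, total UMIs in place of TMM, gene list counts with free RNA subtracted, shares of tumor UMIs without each tumor, and ratios of pooled levels without each mouse or with free RNA subtracted. Every pair of replicates differed by more than sampling noise. The design names as many mice as there are libraries, and nothing else in the records tells replicates apart, so p-values measure the spread between these samples.

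The 10 genes are described in every comparison, and of each gene list up to 4 with the smallest p were named, with others named after their values were seen. Genes with a similar pattern were ranked by Pearson's r of log2(CPM + 10) over sums of at least 20 cells. The genes and the lists were chosen with earlier results of these data known. Statistics were run in R 4.3.3 and Python 3.11.15, and the test was tried on simulated counts.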

Additional observations from a re-analysis of the deposited data

Results flagged for a closer look

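In 14 of 52 groups of 4 or 5 mice, 1 mouse stood apart from the others by Dixon's criterion, which flags about 1 group in 20 by chance. Several of these groups hold mice at 0. In tumor phagocytes, Il1rn (77.3 CPM) and Il12b (49.7 CPM) were far highest in tumor 5 and Il10 (8.82 CPM) in tumor 4. Among control phagocytes, Il6 was highest in control 4, at 8.95 CPM, which rested on 6 UMIs against 2 to 4 in the other controls.

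The microglia gate showed the same mice, tumor 5 for Il1rn (75.9 CPM) and Il12b (53.5 CPM) and tumor 4 for Il10 (4.31 CPM). Il10 there rested on 9 UMIs, and Lif, also highest in tumor 4 at 1.92 CPM, on 4 UMIs. Over all kept cells, Il1b was highest in tumor 3, at 139 CPM.

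Outside phagocytes, Il1b was highest in tumor 3 at 50.1 CPM, where 3 neutrophils held 183 UMIs. Tumor 2 was highest for Il6 (4.98 CPM), where 13 mural cells held 39 UMIs, and for Il10 (1.44 CPM), where 15 of 16 UMIs of ungated cells were in 1 cell. Tumor 5 was highest for Il1a (2.88 CPM) and for Il12b (1.11 CPM), where 15 of 16 UMIs of ungated cells were in 1 cell.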

How the results depend on the processing

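Of the counts recomputed under an alternative, 168 stayed within 1.5 times the reported count and 27 did not. Of the values for single genes, 612 kept direction and call, 25 lost the call, 6 gained it and 19 changed direction. In phagocytes and in microglia, voom kept the calls of Il1a and Tgfb1 and lost those of Il1b, Tnf and Osm. Subtracting free RNA lowered the calls over all genes from 4488 to 2969 in phagocytes and from 3834 to 2430 in microglia, with fewer genes tested. With free RNA subtracted and total UMIs, Tgfb1 turned to -0.42 in phagocytes and -0.54 in microglia. Replicate numbers in tumors and controls did not pair the mice (correlations of same-numbered sums were at most 0.031 in phagocytes, 0.075 in microglia and 0.062 over all kept cells). With the number as a block, 4 of 4 cytokine genes tested were called in phagocytes, 4 of 4 in microglia and 5 of 5 over all kept cells, where 8 were called without it. The shares of all genes called with the block are not given here, so these counts say little about the set.

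Leaving out 1 mouse gave 3 to 5 cytokine genes called (4016 to 5010 genes in all) in phagocytes, 3 to 5 (3544 to 4430) in microglia, 5 to 8 (9163 to 12036) over all kept cells, 7 to 7 (5840 to 6622) in phagocytes against other cells and 4 to 5 for shares of phagocytes. Cytokine genes lost from the sums no longer passed the filter. In macrophages against microglia, leaving out 1 mouse gave 0 to 2 (58 to 389). The numbers of genes tested in these fits are not given here, so the counts say little about the set.

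Macrophages against microglia was the least firm comparison, with 1 cytokine gene and 207 genes called. DESeq2 gave 0 and 103, no filter 2 and 401, no replicate block 0 and 1, no doublets removed 0, and a mitochondrial limit of 10% 325 genes. The log2 difference of Osm, -0.008, turned to 0.0479 with DESeq2, 0.0483 with the mitochondrial limit, 0.0629 with doublets kept, 0.0745 without the block, 0.21 without tumor 2 and 0.26 without tumor 4 (-0.411 without tumor 3). That of Tnf turned to 0.23 without tumor 2 and 0.41 without tumor 4 (-1.385 without tumor 3). Phagocytes against other cells without the replicate block gave 4348 genes in place of 6973. The difference in the share of Il6, -0.0309 percentage points, turned to 0.507 (thinned to 2000 UMIs), 0.639 (not thinned), 0.451 (stricter gate), 0.155 (doublets kept), 0.203 (no barcode limit), 0.0745 (without control 1) and 0.0787 (without tumor 3), and was -0.1115 without tumor 2. With doublets kept, the difference was -0.089 for Il10 and 0 for Lif. Where no cause is named, the cause was not tested. In tumor phagocytes Lif had 9 UMIs, Il10 29 and Il6 74, which limits what can be told of them.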
